A study of Mus musculus with 20 samples.

Results

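Aminoacyl-tRNA synthetases are the enzymes that join each amino acid to its transfer RNA. They were followed here as transcripts in cultured mouse cortical neurons deprived of oxygen and glucose. Genes were taken by symbol, as every symbol of the form Xars, Xars1 or Xars2 (X for any letter) with Eprs, Farsa and Farsb. This gave 37 genes, all of them present in all 4 deposited tables, of 14700 gene symbols in any table. The set held 20 cytosolic enzymes, 8 of which are known members of the multisynthetase complex and 12 of which are known to act outside it, and 17 mitochondrial enzymes.

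In the cytosol the enzymes supply charged tRNA for the ribosomes, and part of them sit together in the multisynthetase complex on the scaffold proteins Aimp1, Aimp2 and Eef1e1. Mitochondria charge their own tRNAs with enzymes from separate nuclear genes, apart from Gars and Kars, whose genes each give a cytosolic and a mitochondrial form. Many cytosolic synthetase genes are known targets of ATF4, the transcription factor of the integrated stress response, and inherited faults in several mitochondrial ones (Rars2 and Fars2 among them) are known causes of disease of the developing brain.

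The study compared 4 groups of 5 libraries. Cortical neurons taken at embryonic day 15 were grown for 7 days and then held for 12 h either in normoxia (N), with 25 mM glucose and 0.2 mM sodium pyruvate added, or deprived of both oxygen and glucose (OGD), at 1% oxygen with neither supplement. Cultures were wild type (WT) or lacked the circular RNA ciRS-7 (KO), whose gene is listed as Cdr1as. All groups, WT included, carried the strain label C57BL/6N-Cdr1asem1Nikr, and the labels give neither the animals behind a culture nor whether any were pooled. The groups are called N_WT, OGD_WT, N_KO and OGD_KO, and libraries are named by replicate, which is also the number of the culture. Cdr1as held 700 to 1365 reads in N_WT and 545 to 1912 in OGD_WT, against 5 to 16 in N_KO and 2 to 14 in OGD_KO.

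Values are log2 CPM after the drawing-in of extreme values in the deposited tables had been undone. CPM are reads scaled by an effective library size, as set in the deposited values. This size differed from the total of the recovered reads, and scaling by total reads was a separate setting given below. The reads recovered per library came to between 7071506 and 16658617, and a synthetase gene held between 13 reads (Sars2) and 9230 reads (Eprs) in a library. In all, 29 of the 37 genes held at least 50 reads in every library. Replicates 1 and 3 of each group differed from each other by 1.26 to 1.67 times the sampling noise of their reads (median over genes), whereas pairs among replicates 2, 4 and 5 differed by 8.54 to 13.7 times and mixed pairs by 3.69 to 7.76 times. Replicates 1 and 3 came from different batches by their labels, so they were kept as separate samples, and the source of their closeness was not tested. The neurons' identity was checked on marker lists. The summed level of 10 neuron markers ran from 4940 to 6340 CPM in N_WT and from 3120 to 5820 CPM in OGD_WT. That of the 7 astrocyte markers present (S100b was not in the table) ran from 1040 to 1360 and from 1710 to 2120 CPM, and that of 8 proliferation markers from 430 to 563 and from 814 to 1450 CPM. In KO cultures the neuron list ran from 5360 to 5570 CPM in N and 3240 to 4680 CPM under OGD, the astrocyte list from 822 to 1480 and 1360 to 2190 CPM, and the proliferation list from 400 to 648 and 978 to 1320 CPM. The 7 oligodendrocyte lineage markers present (Mog was not) ran from 279 to 347 CPM in N_WT and 321 to 478 CPM in OGD_WT, and from 200 to 384 and 270 to 388 CPM in the KO groups. A summed level is carried by the most abundant markers, and members of a list did not all move alike. In WT the log2 fold change under OGD was 1.08 for Slc1a3, 1.06 for Gja1, 0.91 for Sox9 and 0.60 for Aldh1l1. For the other astrocyte markers it was 0.05 for Aqp4, -0.03 for Slc1a2 and -0.47 for Gfap. Among the neuron markers it was -1.69 for Slc17a7, -1.21 for Syt1, -1.15 for Neurod6, -0.61 for Stmn2, -0.52 for Gad2 and -0.51 for Tubb3. Snap25 had -0.22, Map2 and Rbfox3 -0.20 each, and Gad1 0.27. None of the 8 microglia or 4 endothelial markers was in these tables. The part of these shifts in the synthetase results was not tested, and in bulk RNA fewer cells of a type cannot be told apart from less RNA per cell.

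Promoter sequence was available for 27 of the 37 genes, from RefSeq on GRCm38.p6, over 250 bases before to 50 bases after each start. Among those not matched were Cars, Hars, Hars2, Lars, Nars, Pars2, Rars, Vars and Wars. Of the 8 genes with sequence among the largest rises and falls below, 4 held a searched motif in the bases before both the RefSeq and the GENCODE start, and these are shown 5′ to 3′ on the gene's strand with the motif letters in capitals. They are Eprs at chr1:185362794-185363043 (plus strand), Tars at chr15:11399666-11399908 (minus strand), Iars at chr13:49681880-49682099 (plus strand) and Rars2 at chr4:34614707-34614956 (plus strand), in GRCm38.p6.
Eprs: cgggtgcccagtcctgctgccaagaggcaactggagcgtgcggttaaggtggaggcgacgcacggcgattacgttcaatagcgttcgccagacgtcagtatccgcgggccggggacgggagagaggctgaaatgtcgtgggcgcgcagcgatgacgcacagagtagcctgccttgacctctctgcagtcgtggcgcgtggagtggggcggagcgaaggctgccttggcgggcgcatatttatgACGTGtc
Tars: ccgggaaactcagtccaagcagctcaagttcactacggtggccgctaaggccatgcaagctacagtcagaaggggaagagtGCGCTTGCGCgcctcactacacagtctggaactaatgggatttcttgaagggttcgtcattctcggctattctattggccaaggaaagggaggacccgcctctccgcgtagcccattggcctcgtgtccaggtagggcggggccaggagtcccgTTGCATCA
Iars: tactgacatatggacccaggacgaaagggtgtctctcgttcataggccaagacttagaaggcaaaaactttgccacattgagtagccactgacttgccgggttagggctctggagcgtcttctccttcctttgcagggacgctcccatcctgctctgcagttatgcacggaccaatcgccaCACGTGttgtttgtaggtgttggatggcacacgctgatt
Rars2: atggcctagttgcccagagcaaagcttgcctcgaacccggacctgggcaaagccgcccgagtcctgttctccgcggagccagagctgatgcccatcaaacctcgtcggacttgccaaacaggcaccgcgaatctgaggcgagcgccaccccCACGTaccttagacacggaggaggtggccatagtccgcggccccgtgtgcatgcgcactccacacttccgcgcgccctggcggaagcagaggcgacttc

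The capitals mark 3 motifs, each searched on both strands. TGATGNAA is the core shared by binding sites of ATF4 with a C/EBP partner, ACGTG is the core of the hypoxia response element, and the NRF1 site binds NRF1, a regulator of nuclear genes for mitochondria. CACGTG reads as ACGTG on both strands, and this is the form in the Iars window. TGATGNAA was found in 5 of the 13 cytosolic genes with a promoter (Aars, Gars, Iars, Tars and Yars) and in 0 of the 14 mitochondrial ones, compared with 4.51% of 27025 promoters in all and 2.55% of the 10147 genes of the WT table that had one. In Tars it lay 15 to 8 bases before the start, which closes the sequence shown, whereas in Iars it lay 8 to 15 bases after the start and so outside the part shown. ACGTG was in 10 of the 27 genes (37%), against 21.8% of all promoters and 29.6% of those in the WT table. The NRF1 site was in 5 of the 27 (Farsb, Iars2, Kars, Mars2 and Tars), against 5.19% and 11.7%. Such matches describe letters in these windows and are not measured binding sites.

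The level of each enzyme's transcript in unstressed WT neurons was compared per length, as CPM per kilobase of exon. Length was the union of all exons annotated for the gene, whichever transcripts the neurons use. It came to 18102 bases for Eprs and 9282 for Aars, but 3119 for Gars and 2447 for Hars. The order below therefore depends on the annotation as well as on the reads. The cytosolic enzymes had a median of 14.1 and ran from 3.72 for Qars, the glutamine enzyme, to 57.4 ± 13.2 (SD, n = 5) for Gars, the glycine enzyme. The 17 mitochondrial enzymes had a median of 1.84 and ran from 0.883 ± 0.203 for Cars2 (SD, n = 5) to 8.06 ± 2.85 for Rars2 (SD, n = 5). Gars and Nars, the asparagine enzyme with 34.4 ± 1.48 (SD, n = 5), held the first and second place, and their libraries did not overlap, from 43.8 to 78.3 against 32.1 to 36.2. The third to seventh places (Iars, Aars, Lars, Hars and Mars1) had means from 20.2 down to 18.4 and ranges that overlapped. Of the mitochondrial enzymes only Rars2 lay above any cytosolic enzyme other than Qars in N_WT, on group means, and Iars2, Hars2 and Mars2 lay above Qars alone. Under OGD the medians were 14.7 for cytosolic and 2.19 for mitochondrial enzymes in WT, and 14.2 and 2.25 in KO.

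**Figure D1:**
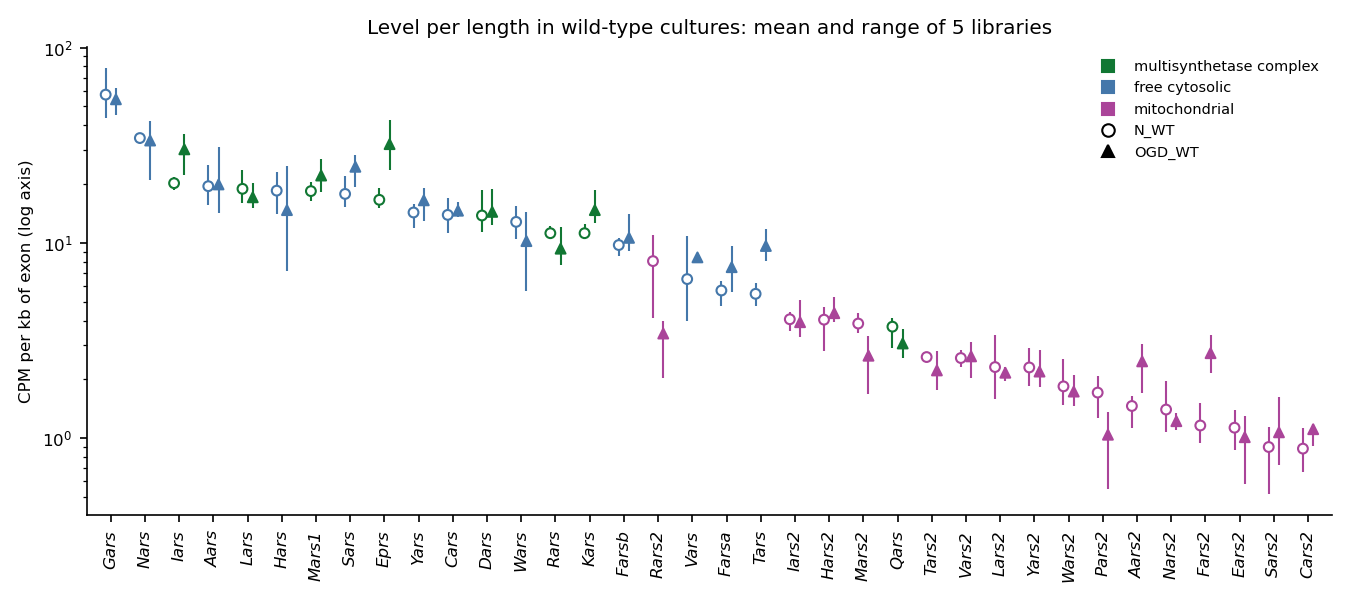
Level per length of the synthetase transcripts in WT cultures, as CPM per kilobase of exon on a log axis, ordered by the N_WT mean. Open circles are N_WT means and filled triangles OGD_WT means of 5 libraries, lines span the lowest to the highest library, and colour gives the place of the enzyme. Gars has the highest N_WT mean at 57.4 and Cars2 the lowest at 0.883.

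OGD moved the synthetase transcripts in both directions. In WT cultures 8 of the 37 rose and 4 fell (limma, Benjamini-Hochberg adjusted p under 0.05), and 25 did not pass. That is 32.4% of the set, beside 44.3% of the 14235 genes tested (21.6% higher and 22.8% lower). In KO cultures 9 rose and 4 fell, which is 35.1% of the set beside 40.9% of 14375 genes (21% higher and 19.9% lower). The share of the set called was thus below that of all genes in both genotypes. The median log2 fold change was -0.01 for the set and -0.03 for all genes in WT, and 0.02 and 0.00 in KO. The 8 enzymes that rose in both genotypes were Fars2, Eprs, Tars, Aars2, Iars, Sars, Farsa and Kars. Vars rose in KO only by this threshold, with a WT adjusted p of 0.0632 in limma. The 4 that fell, with Rars2, Pars2 and Mars2 among them, were the same in both genotypes and all mitochondrial in these fits. Some other settings given below also called cytosolic enzymes lower, and so did these fits for the cytosolic Tarsl2, which lies outside the symbol rule.

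By place, none of the 20 cytosolic transcripts of the set was called lower in either genotype on the restored values, but this depended on the setting. It also depended on the symbol rule, which leaves out Tarsl2, a second cytosolic threonine enzyme. Tarsl2 was called lower in both genotypes, at -0.54 ± 0.20 in WT and -0.57 ± 0.15 in KO. On the values as deposited, Hars, Qars, Rars and Wars were called lower in WT and Hars in KO, and with the culture as a block Hars was called lower in KO. With scaling by total reads 5 were called lower in WT (Hars, Lars, Qars, Rars and Wars) and 3 in KO (Hars, Qars and Wars), and with replicates 1 and 3 alone Hars, Lars, Qars and Wars in WT and Hars and Qars in KO. On the restored values 6 (WT) and 7 (KO) cytosolic transcripts rose, with a median log2 fold change of 0.09 and 0.15. Of the 17 mitochondrial ones 2 rose and 4 fell in each genotype, and their medians were -0.07 (WT) and 0.00 (KO). Of all genes, 21.6% were higher and 22.8% lower in WT and 21% and 19.9% in KO, and the difference between places was not tested. Within the cytosolic set, 3 of the 8 complex members (Eprs, Iars and Kars) rose in each genotype, and 3 (WT) or 4 (KO) of the 12 others. By catalytic class, 4 of 10 cytosolic class II enzymes rose in each genotype, against 1 (WT) and 2 (KO) of 9 of class I. Eprs joins a domain of each class in 1 protein and was counted in neither. Both mitochondrial rises were class II enzymes (2 of 8), and the 4 falls were split evenly between the classes.

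**Figure D2:**
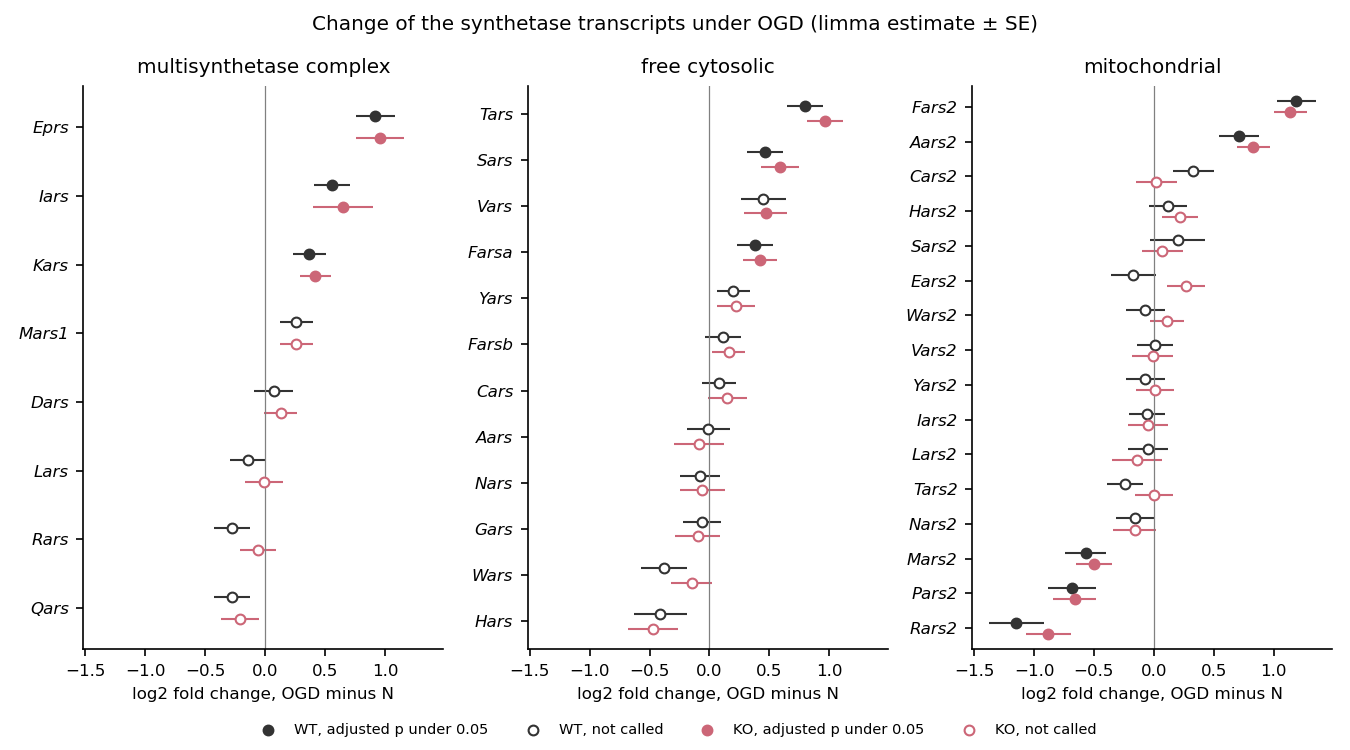
Change of the synthetase transcripts under OGD, as the limma log2 fold change with its standard error, in WT (black) and KO (red) cultures, split by place of the enzyme. Filled points passed an adjusted p under 0.05 and open points did not. In the fits drawn, though not under every setting, all falls lie in the mitochondrial panel, from Rars2 at -1.15 in WT to Mars2 at -0.50 in KO, and the largest rise is Fars2 at 1.19 in WT. Tarsl2, a cytosolic enzyme outside the symbol rule that was called lower, is not drawn.

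The counts also moved with the scaling. Scaled by total reads alone, the median of all genes moved by -0.28 in WT and -0.29 in KO, and the share of called genes that were higher went from 48.6% to 22.1% in WT and from 51.3% to 21.9% in KO. The synthetases called were then 4 higher and 11 lower in WT and 4 higher and 7 lower in KO. Fars2, Eprs, Tars and Aars2 remained higher and Rars2, Pars2 and Mars2 lower in both genotypes under that scaling, whereas Iars, Sars, Farsa and Kars no longer passed. The WT log2 fold change was then 0.45 for Aars2 and 0.53 for Tars, and the KO value of Mars2 was -0.79. With replicates 1 and 3 alone the counts were 9 higher and 7 lower in WT and 11 higher and 5 lower in KO, and with replicates 2, 4 and 5 alone they were 3 and 3 in WT and 4 and 3 in KO, subsets chosen after seeing the data. Within the cultures labelled batch 3 they were 5 higher and 4 lower in WT and 4 higher and 3 lower in KO.

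The largest rise was that of Fars2, the mitochondrial phenylalanine enzyme (chr13:36117412-36726280, plus strand, GRCm38). Its log2 CPM in replicates 1 to 5 was 2.90, 3.19, 2.68, 2.55 and 2.69 in N_WT and 3.91, 3.89, 4.16, 3.67 and 4.30 in OGD_WT. In N_KO it was 2.99, 2.73, 2.94, 2.90 and 2.92, and in OGD_KO 3.97, 3.89, 3.95, 3.99 and 4.38. Every OGD library lay above every N library of its genotype. The log2 fold change was 1.19 ± 0.16 (SE) in WT, a 2.28-fold rise, with a limma adjusted p of 7.18e-06, and 1.14 ± 0.14 in KO, a 2.20-fold rise, with an adjusted p of 6.37e-06. The exact permutation p was 0.00794 in each genotype, the smallest that 5 against 5 libraries allow. In 616 exonic bases Fars2 overlaps Nrn1 and Lyrm4 on the opposite strand, and the labels do not state whether counting used strand. Nrn1 had a log2 fold change of 0.64 ± 0.17 in WT (limma adjusted p 0.0039) and 0.30 ± 0.19 in KO (adjusted p 0.218), and Lyrm4 -0.05 ± 0.16 and -0.27 ± 0.16.

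Aars2, the mitochondrial alanine enzyme (chr17:45506841-45520843, plus strand), was the other mitochondrial transcript to rise. Its values were 2.94, 2.53, 2.89, 3.05 and 2.96 in N_WT against 3.58, 3.09, 3.55, 3.90 and 3.77 in OGD_WT, and 2.69, 2.86, 2.94, 2.57 and 3.03 in N_KO against 3.71, 3.48, 3.55, 3.71 and 3.78 in OGD_KO. The groups did not overlap in either genotype, with replicate 2 the lowest in both WT groups. OGD minus N came to 0.71 ± 0.17 on the log2 scale in WT (limma adjusted p 0.00174) and 0.83 ± 0.14 in KO (adjusted p 0.000175). With replicates 2, 4 and 5 alone the WT call was lost, at 0.74 (adjusted p 0.081).

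Among cytosolic enzymes Eprs, which charges both glutamate and proline tRNAs (chr1:185363044-185428360, plus strand), rose most. Its values in N_WT were 8.20, 8.20, 8.25, 8.09 and 8.42, and in OGD_WT 9.23, 9.58, 9.15, 9.07 and 8.74. In KO cultures they were 8.14, 8.37, 8.19, 7.61 and 8.51 in N and 9.16, 9.43, 9.11, 9.36 and 8.58 under OGD. The groups did not overlap, although in KO the margin was 0.07 log2 units, between replicate 5 of both groups. The log2 fold change was 0.92 ± 0.16 in WT (limma adjusted p 8.38e-05) and 0.96 ± 0.20 in KO (adjusted p 0.00071), that is, 1.90-fold and 1.95-fold.

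Tars, the cytosolic threonine enzyme (chr15:11382301-11399665, minus strand), followed. Its WT values were 5.20, 4.86, 5.03, 5.21 and 4.82 in N and 5.76, 6.12, 5.79, 5.59 and 5.87 under OGD. Its KO values were 4.87, 5.29, 5.01, 4.60 and 4.83 in N and 5.82, 6.14, 5.80, 5.67 and 5.93 under OGD. Again the groups did not overlap in either genotype, and all 5 cultures of each genotype moved up. The change on the log2 scale was 0.80 ± 0.15 in WT (limma adjusted p 0.000146) and 0.96 ± 0.15 in KO (adjusted p 7.54e-05).

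Iars, the isoleucine enzyme of the complex (chr13:49682100-49734267, plus strand), rose in WT without overlap, from 6.69, 6.63, 6.79, 6.84 and 6.73 in N_WT to 7.31, 7.57, 7.26, 7.45 and 6.88 in OGD_WT. In KO the values were 6.63, 6.71, 6.74, 6.04 and 7.08 in N and 7.47, 7.99, 7.28, 7.48 and 6.25 under OGD. The KO groups overlapped through culture 5, which had 7.08 in N and 6.25 under OGD, while the other 4 cultures were higher under OGD. In WT the log2 fold change was 0.56 ± 0.15 (limma adjusted p 0.00396). In KO it was 0.65 ± 0.25 (adjusted p 0.0419), and 0.92 ± 0.18 without OGD_KO replicate 5 (adjusted p 0.000359). The KO call was lost with the culture as a block (adjusted p 0.085), within the cultures labelled batch 3 (adjusted p 0.184) and when any of replicates 1 to 4 of either KO group was left out, and the exact permutation p in KO was 0.0952. Of its 50-base words, 7.15% also occur in other genes.

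Sars, the cytosolic serine enzyme (chr3:108424865-108445209, minus strand), had values of 6.51, 6.82, 6.56, 6.38 and 6.29 in N_WT and 6.95, 7.18, 7.02, 7.07 and 6.64 in OGD_WT, and of 6.50, 6.73, 6.45, 6.11 and 6.39 in N_KO and 7.04, 7.15, 6.96, 7.38 and 6.60 in OGD_KO. All 5 cultures of each genotype were higher under OGD, but the groups overlapped in both genotypes, in each case through replicate 5 under OGD and replicate 2 in N. On the log2 scale the change was 0.46 ± 0.15 in WT (limma adjusted p 0.0159) and 0.59 ± 0.16 in KO (adjusted p 0.00747). Within the cultures labelled batch 3 the Sars call was lost in both genotypes, at 0.46 in WT (limma adjusted p 0.0725) and 0.63 in KO (adjusted p 0.177), and in WT also with replicates 1 and 3 averaged (adjusted p 0.0765).

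The remaining rises were smaller. Farsa, the alpha subunit of the cytosolic phenylalanine enzyme, had a log2 fold change of 0.38 ± 0.15 in WT (limma adjusted p 0.0492) and 0.42 ± 0.14 in KO (adjusted p 0.0217), while its partner subunit Farsb had 0.11 ± 0.15 and 0.16 ± 0.14 and did not pass in either. Kars, the lysine enzyme, had 0.37 ± 0.14 in WT (limma adjusted p 0.0363) and 0.42 ± 0.13 in KO (adjusted p 0.0151). Within the cultures labelled batch 3 neither call held in either genotype. With the culture as a block the WT calls of Farsa (adjusted p 0.0951) and Kars (adjusted p 0.0554) were lost. The WT call of Farsa was also lost without any 1 of replicates 1 to 4 of either WT group, that of Kars without OGD_WT replicate 1, 2 or 3 or N_WT replicate 1, 2, 3 or 5, and the KO call of Farsa without N_KO replicate 1 or 5. Vars, the valine enzyme, had 0.45 ± 0.19 in WT and 0.47 ± 0.18 in KO, where the limma adjusted p was 0.0454. Its KO call was lost when replicate 1, 3, 4 or 5 of OGD_KO or replicate 1, 2, 3 or 4 of N_KO was left out, with a log2 fold change of 0.31 without N_KO replicate 4. In WT, without N_WT replicate 5, at 5.93 the highest of that group, the log2 fold change was 0.65 ± 0.16 with an adjusted p of 0.00216.

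The deepest fall was that of Rars2, the mitochondrial arginine enzyme (chr4:34614957-34660167, plus strand). Its values were 4.21, 4.95, 4.51, 4.88 and 3.57 in N_WT and 3.46, 2.60, 3.32, 3.52 and 3.47 in OGD_WT. In N_KO they were 4.36, 5.05, 4.36, 4.54 and 3.86, and in OGD_KO 3.71, 3.20, 3.61, 3.69 and 3.55. No OGD library reached the lowest N library of its genotype, which was replicate 5 in both. The log2 fold change was -1.15 ± 0.23 in WT (limma adjusted p 0.000314) and -0.88 ± 0.19 in KO (adjusted p 0.000957), that is, to 0.45 and 0.543 of the N level. Culture 2 fell most in both genotypes, by 2.35 and 1.85 log2 units, and culture 5 least, by 0.10 and 0.31.

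Pars2, the mitochondrial proline enzyme (chr4:106651069-106655282, plus strand), had 2.11, 2.77, 2.54, 2.64 and 2.44 in N_WT and 1.95, 1.08, 1.81, 2.21 and 2.02 in OGD_WT, and 2.46, 2.86, 2.50, 2.62 and 2.62 in N_KO and 2.30, 1.42, 2.07, 2.19 and 1.79 in OGD_KO. The KO groups did not overlap, and the WT groups did through replicate 4 under OGD and replicate 1 in N. The log2 fold change was -0.68 ± 0.20 in WT (limma adjusted p 0.00818) and -0.66 ± 0.18 in KO (adjusted p 0.00611). With replicates 1 and 3 alone it was -0.44 in WT and -0.30 in KO and was no longer called, and with replicates 2, 4 and 5 alone -0.85 and -0.90. Pars2 was little read, with 38 to 94 reads per library in N_WT and 18 to 53 in OGD_WT. In KO it held 44 to 100 in N and 18 to 61 under OGD.

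Mars2, the mitochondrial methionine enzyme (chr1:55237177-55248470, plus strand), had 5.30, 5.35, 5.51, 5.64 and 5.48 in N_WT and 4.91, 4.28, 4.85, 5.25 and 5.12 in OGD_WT, and 5.49, 5.04, 5.25, 5.50 and 5.58 in N_KO and 4.88, 4.58, 4.94, 5.13 and 4.84 in OGD_KO. The WT groups did not overlap. In KO the highest OGD library, replicate 4, lay above the lowest N library, replicate 2. The log2 fold change was -0.57 ± 0.17 in WT (limma adjusted p 0.00784) and -0.50 ± 0.15 in KO (adjusted p 0.0119). Within the KO cultures labelled batch 3 the call was lost, at -0.52 (limma adjusted p 0.254), and it was also lost in KO with replicates 1 and 3 averaged and in WT with replicates 2, 4 and 5 alone (-0.60, adjusted p 0.171).

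Hars and Wars, the cytosolic histidine and tryptophan enzymes, had the next lowest values but did not pass. Hars had 5.54, 5.82, 5.53, 5.48 and 5.12 in N_WT and 5.05, 5.16, 5.11, 5.93 and 4.17 in OGD_WT, and 5.42, 5.82, 5.59, 5.87 and 4.84 in N_KO and 5.24, 5.65, 5.00, 4.77 and 4.52 in OGD_KO. Its OGD_WT libraries ran from 4.17 to 5.93 and covered the N_WT range. The log2 fold change was -0.41 ± 0.22 in WT (limma adjusted p 0.135) and -0.47 ± 0.21 in KO (adjusted p 0.0809), where it passed with the culture as a block (adjusted p 0.0482). It also passed in WT without OGD_WT replicate 4 and in KO without OGD_KO replicate 2 or N_KO replicate 5. Wars had 5.49, 5.19, 5.51, 5.41 and 5.74 in N_WT and 4.94, 4.32, 5.14, 5.39 and 5.63 in OGD_WT, and 5.43, 5.22, 5.50, 5.10 and 5.94 in N_KO and 5.43, 4.94, 5.13, 5.38 and 5.56 in OGD_KO, with a log2 fold change of -0.38 ± 0.19 in WT (limma adjusted p 0.111) and -0.15 ± 0.17 in KO (adjusted p 0.498). The groups overlapped in both genotypes, and without OGD_WT replicate 5 the WT difference passed.

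**Figure D3:**
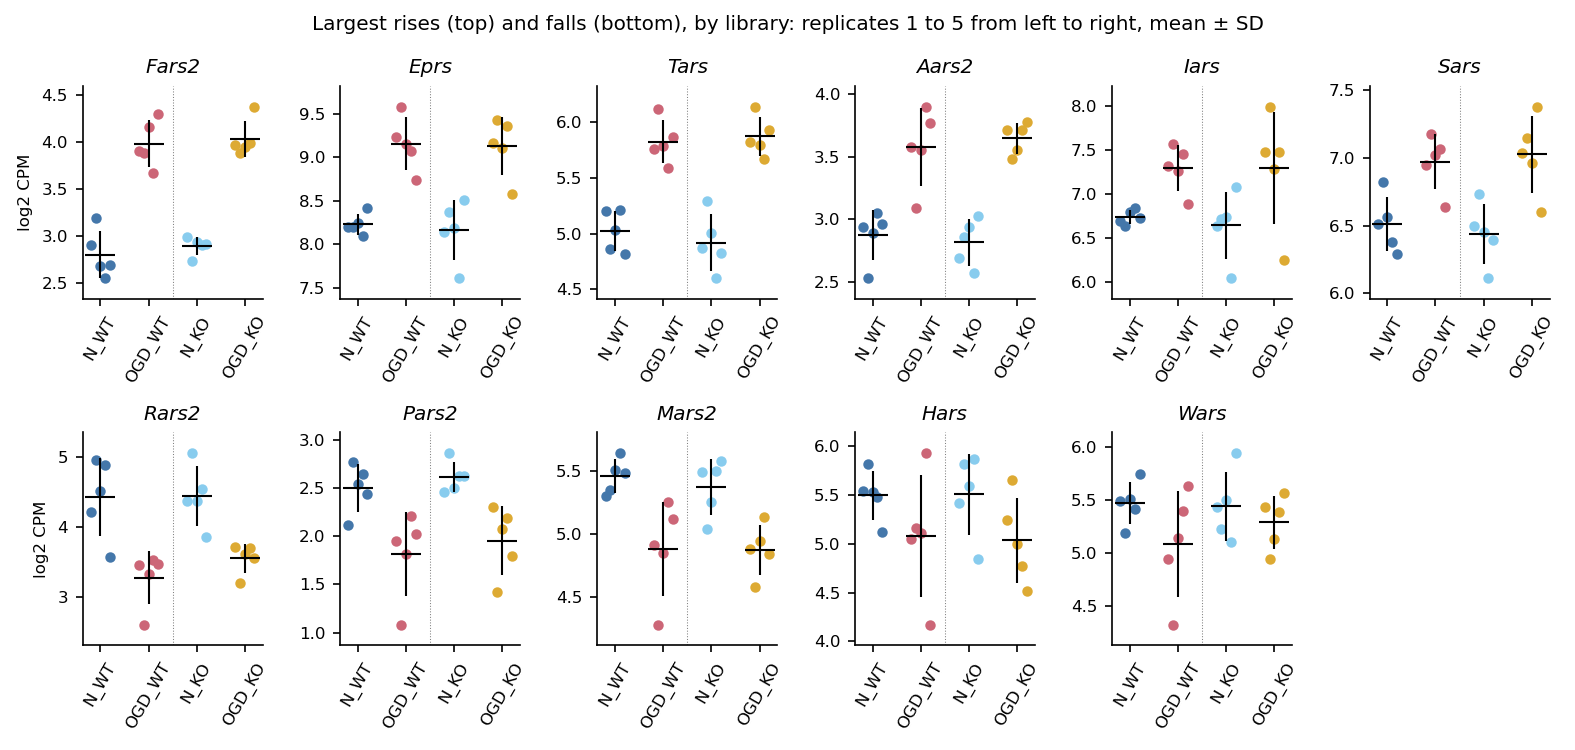
Log2 CPM of the 6 members with the largest rise (top row) and of 5 of the 6 with the largest fall (bottom row) in every library. Points are replicates 1 to 5 from left to right, and black marks give the mean and SD of 5 libraries. WT and KO values come from separately scaled tables, and the dotted line parts them. Fars2, Eprs, Tars and Aars2 show no overlap between N and OGD in either genotype, nor does Rars2, whereas Hars and Wars overlap in both.

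Groups without overlap numbered 6 higher (Fars2, Eprs, Tars, Aars2, Iars and Kars) and 3 lower (Rars2 and Mars2 among them) among the 37 in WT, beside 13.9% of all genes higher and 13.1% lower. In KO they numbered 6 higher (Fars2, Eprs, Tars, Aars2, Farsa and Kars) and 3 lower (Rars2 and Pars2 among them), beside 13.4% and 12.4%.

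The other 22 enzymes did not pass in either genotype, which leaves the 24 so classed with Hars and Wars. In the complex, Mars1 (methionine) had a log2 fold change of 0.26 in both genotypes, Dars (aspartate) 0.07 in WT and 0.13 in KO, Lars (leucine) -0.14 and -0.01, Rars (arginine) -0.28 and -0.06, and Qars -0.28 and -0.21. Mars1 was higher under OGD in each of the 5 KO cultures, with an exact permutation p of 0.0238 and a limma adjusted p of 0.151, and overlaps the stress gene Ddit3 on the opposite strand over 68 bases. Ddit3 itself had 1.09 ± 0.15 in WT and 1.42 ± 0.19 in KO. Outside the complex, Aars (alanine) had -0.01 in WT and -0.09 in KO, Gars -0.06 and -0.10, Nars -0.08 and -0.06, Cars (cysteine) 0.08 and 0.15, and Yars (tyrosine) 0.20 and 0.22. Aars shares 1326 exonic bases with Exosc6 on the same strand, and 13.5% of its 50-base words occur in other genes, so its level is uncertain. Left-out libraries brought a WT call for Qars (without N_WT replicate 2), Rars (without OGD_WT replicate 2) and Cars2 (without N_WT replicate 5).

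The 11 mitochondrial enzymes that did not pass ranged from -0.24 (Tars2) to 0.33 (Cars2) in WT and from -0.16 (Nars2) to 0.27 (Ears2) in KO. Hars2, Iars2, Lars2, Sars2, Vars2, Wars2 and Yars2 made up the rest. Sars2 was the least read of them, with 13 reads in its lowest library. Iars2 overlaps Rab3gap2 on the opposite strand over 2148 bases, and Rab3gap2 had 0.58 ± 0.16 in WT and 0.49 ± 0.16 in KO.

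For 17 amino acids the tables held a cytosolic and a mitochondrial enzyme. The cytosolic transcript had the higher log2 fold change of the pair in both genotypes for 11 of them. Eprs was counted for both glutamate and proline, and Tars alone stood for the cytosolic threonine enzymes. Tarsl2, which was not counted, went the other way and lay below Tars2 in both genotypes, at -0.54 in WT and -0.57 in KO. The widest gap was for proline, with Eprs at 0.92 and Pars2 at -0.68 in WT. For glutamate Eprs at 0.92 stood beside Ears2 at -0.17, for threonine Tars at 0.80 beside Tars2 at -0.24, and for methionine Mars1 at 0.26 beside Mars2 at -0.57. The mitochondrial one was higher in both genotypes for 4, alanine, histidine, tryptophan and phenylalanine, with Aars at -0.01 beside Aars2 at 0.71 and Farsa at 0.38 beside Fars2 at 1.19 in WT. Cysteine and leucine changed order between the genotypes. No test was made of these gaps.

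Paired by their labels, cultures differed in how far they responded. Eprs, for example, changed by between 0.32 (culture 5) and 1.39 (culture 2) log2 units in WT cultures and between 0.07 (culture 5) and 1.76 (culture 4) in KO cultures. A group of 6 cytosolic transcripts is given here that was picked after its values were seen. Aars, Gars, Nars, Iars, Eprs and Sars were all below their group mean in replicate 5 under OGD, with deviations from -0.62 to -0.26 log2 units in OGD_WT and from -1.04 to -0.43 in OGD_KO. WT5 and KO5 carry different batch labels (3.1 and 3.3). Fars2 did the opposite and was highest in replicate 5 of both OGD groups, at 4.30 and 4.38. Over the 20 libraries, deviations from the group mean had a median pairwise correlation of 0.28 among the 12 cytosolic genes known as ATF4 induced, 0.18 among the 8 other cytosolic genes and -0.02 among the mitochondrial ones, values that share the libraries and their scaling.

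**Figure D4:**
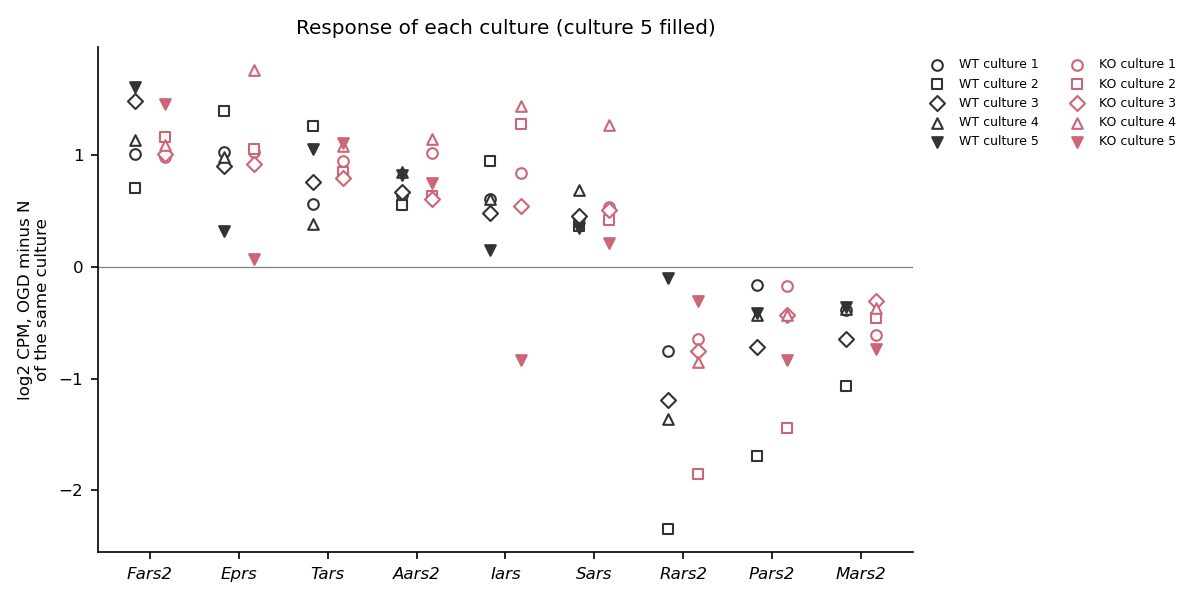
Response of each culture, as log2 CPM under OGD minus log2 CPM in N of the library with the same culture label. Drawn are 9 members with the largest rises and falls that passed the test. Black marks are WT and red marks KO cultures, 1 shape per culture, with culture 5 filled. Culture 5 gives the smallest Eprs and Rars2 changes in both genotypes, and for Iars its KO value lies below 0.

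The 12 cytosolic synthetases known as ATF4 induced were Aars, Cars, Eprs, Gars, Iars, Lars, Mars1, Nars, Sars, Tars, Wars and Yars. In each genotype 4 of them rose (Eprs, Iars, Sars and Tars), none fell and 8 did not pass, with a median log2 fold change of 0.14 in WT and 0.19 in KO. Of the 8 other cytosolic enzymes 2 rose in WT and 3 in KO, with medians of 0.09 and 0.14. Of 16 regulators of the same stress response, 12 rose in WT and 13 in KO and none fell, with medians of 0.96 and 0.91, beside 21.6% and 21% of all genes higher. No difference between these lists was tested. Atf3, a transcription factor induced by stress, had a log2 fold change of 2.96 ± 0.17 in WT and 2.85 ± 0.22 in KO, and the small nuclear stress protein Nupr1 2.20 ± 0.19 and 2.63 ± 0.19. Eif4ebp1, the inhibitor of cap-dependent translation, had 1.46 ± 0.21 and 1.70 ± 0.19, and Atf4 itself 0.89 ± 0.16 and 0.88 ± 0.18. The limma adjusted p of these 4 was 0.000997 or lower in both genotypes. Atf4 was added to the named genes after its values were seen, as were Asns and Eef1e1 below.

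Amino acid supply, the step before charging, was also followed. Of 20 transporter and biosynthesis genes known as ATF4 targets, 13 rose and 1 fell in WT and 12 rose and 1 fell in KO, with medians of 0.52 and 0.60. Beside this, 21.6% of all genes were higher and 22.8% lower in WT, and 21% and 19.9% in KO. Slc7a11, the cystine transporter, had 1.82 ± 0.20 in WT and 2.12 ± 0.17 in KO. Phgdh, the first enzyme of serine synthesis, had 1.01 ± 0.16 and 1.15 ± 0.15, and Slc3a2, the partner chain of several amino acid transporters, 1.05 ± 0.15 and 1.08 ± 0.14. Slc7a3, a transporter of cationic amino acids, fell by 0.75 in WT and by 0.65 in KO on the log2 scale. Asns, the asparagine synthetase (which makes the amino acid and does not charge tRNA), had -0.06 ± 0.17 in WT and -0.06 ± 0.20 in KO and did not pass.

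Downstream of charging, 5 of 8 genes on a list of cytosolic elongation factors and the Eef2 kinase gene Eef2k rose in both genotypes and none fell. Those that did not pass were Eef1a2, Eef2k and Eif5a. Eef1a2 had -0.31 ± 0.18 in WT and -0.27 ± 0.14 in KO, Eef2k -0.24 and -0.17, and Eif5a 0.14 in both. The share of all genes higher was 21.6% in WT and 21% in KO. Eef1a1, which brings charged tRNA to the ribosome, had 0.70 ± 0.16 in WT and 0.70 ± 0.18 in KO, Eef2, which moves the ribosome along, 0.67 ± 0.15 and 0.64 ± 0.16, and Eef1b2, the exchange factor of Eef1a1, 0.60 ± 0.14 and 0.68 ± 0.15. The list of 14 mitochondrial charging and elongation genes also held initiation, release and recycling factors. None of the 14 rose, and 4 fell in WT and 3 in KO, beside 22.8% and 19.9% of all genes lower. Those falls include the initiation factor Mtif3 in WT and the recycling factor Mrrf in KO. Gatc, a subunit of the amidotransferase that makes mitochondrial glutamine tRNA, had -0.58 ± 0.16 in WT and -0.71 ± 0.15 in KO. Tsfm, a mitochondrial elongation factor, had -0.58 ± 0.18 and -0.67 ± 0.19, and Mtfmt, the enzyme that formylates the initiator tRNA charged by Mars2, had -0.50 ± 0.16 in WT (limma adjusted p 0.0166) and -0.31 ± 0.17 in KO (adjusted p 0.142).

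Scaffold and related proteins gave 1 rise and 5 falls in each genotype, among 14 genes tested in WT and 13 in KO, beside the same shares of all genes. The scaffold gene that passed was Aimp2 in WT (0.42 ± 0.16) and Aimp1 in KO (0.35 ± 0.13), and Eef1e1 had -0.22 ± 0.18 and -0.25 ± 0.17. Dtd2, an editing enzyme that removes wrongly coupled amino acids from tRNA, had the lowest value at -0.81 ± 0.18 in WT and -0.69 ± 0.17 in KO. Tarsl2, a second cytosolic threonine enzyme that the symbol rule does not take, had -0.54 ± 0.20 and -0.57 ± 0.15, beside the rise of Tars. Pstk, which acts in selenocysteine tRNA synthesis, had -0.56 ± 0.18 and -0.49 ± 0.18. Of 23 tRNA maturation genes 2 rose and 3 fell in WT and 3 rose and 2 fell in KO, beside 21.6% of all genes higher and 22.8% lower in WT and 21% and 19.9% in KO. Trmt10c, a subunit of mitochondrial RNase P, had 1.05 ± 0.15 in WT and 0.98 ± 0.16 in KO, and Rpp38, of nuclear RNase P, 0.93 ± 0.17 and 1.03 ± 0.18, whereas Elac1, which processes tRNA 3′ ends, had -1.01 ± 0.16 and -1.05 ± 0.16. Clp1, a tRNA splicing kinase, passed in KO alone with 0.47 ± 0.18. Rpp25 and Rpp40, of the same RNase P, had -0.72 ± 0.24 and -0.58 ± 0.19 in WT and -0.48 ± 0.19 and -0.46 ± 0.18 in KO.

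**Figure D5:**
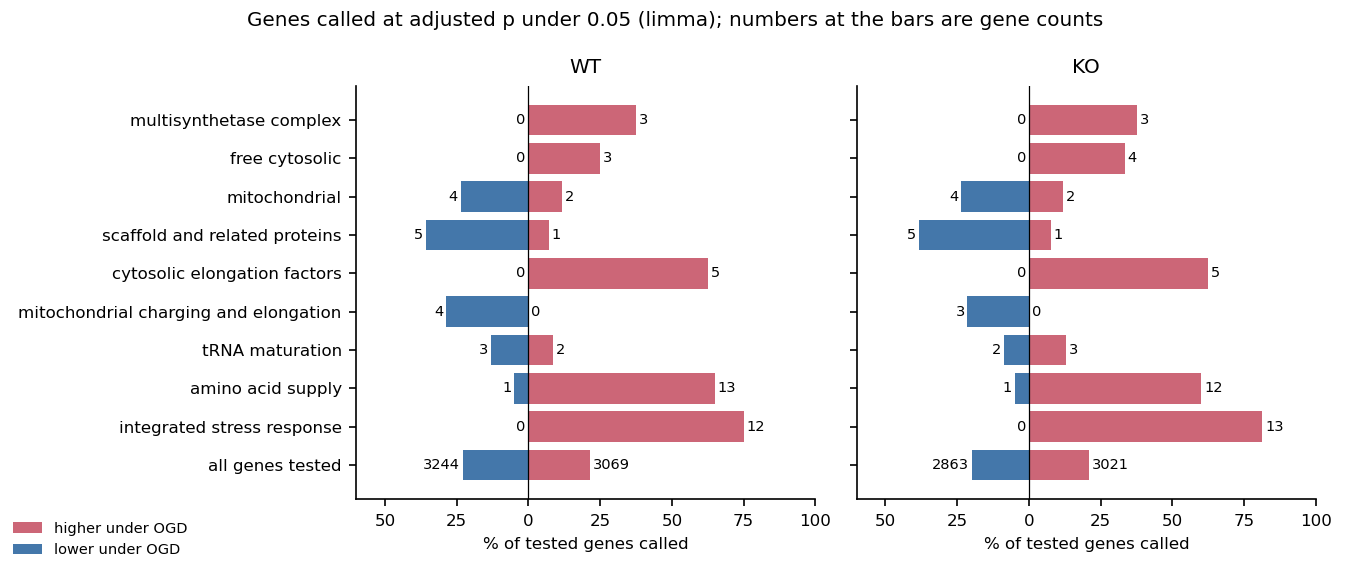
Share of each gene list called higher (red, to the right) or lower (blue, to the left) under OGD in WT and KO cultures, with the gene counts at the bars. The lowest bars give all genes tested. In the fits drawn, though not under every setting, the cytosolic synthetase lists hold no fall, the mitochondrial list holds 2 rises and 4 falls, and the stress response list holds 12 rises in WT and 13 in KO. The fall of Tarsl2, a cytosolic enzyme, is counted in the scaffold list.

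Loss of ciRS-7 gave no synthetase call. In normoxia 0 of 37 were called between KO and WT, beside 0.0353% of 14152 genes. None had an unadjusted limma p under 0.05, beside 1.81% of all genes. Calibrated p-values would put a share of about 0.05 there without any difference, so this test ran conservative. The differences ran from -0.09 to 0.29 log2 units, with standard errors from 0.12 to 0.24. Cars2, the mitochondrial cysteine enzyme, had the smallest p. In the table of that comparison it had 3.13, 2.48, 2.73, 2.65 and 3.20 in N_WT and 3.07, 3.17, 3.13, 3.11 and 3.18 in N_KO, and 2 of the WT libraries, replicates 1 and 5, lay within the KO range or above it. The difference was 0.29 ± 0.16 (unadjusted limma p 0.0769, exact permutation p 0.143). Pars2 had 2.20, 2.87, 2.64, 2.74 and 2.53 in N_WT and 2.59, 2.98, 2.64, 2.75 and 2.74 in N_KO, and Fars2 had 3.0, 3.29, 2.78, 2.65 and 2.79 in N_WT and 3.12, 2.85, 3.09, 3.05 and 3.05 in N_KO. The groups overlapped for both, with differences of 0.15 ± 0.16 and 0.13 ± 0.15.

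Under OGD, likewise 0 of 37 differed between KO and WT, beside 0.0282% of 14185 genes, and none had an unadjusted limma p under 0.05, beside 1.78% of all genes. The differences ran from -0.12 to 0.40 log2 units. Ears2, the mitochondrial glutamate enzyme, had 2.38, 1.60, 2.44, 2.38 and 2.66 in OGD_WT and 2.60, 3.04, 2.66, 2.67 and 2.48 in OGD_KO, with a difference of 0.40 ± 0.19 (unadjusted limma p 0.0544, exact permutation p 0.0397). The groups overlapped, and replicate 2 was the lowest library of OGD_WT and the highest of OGD_KO. Rars2 had 3.30, 2.43, 3.16, 3.38 and 3.31 in OGD_WT and 3.57, 3.03, 3.47, 3.55 and 3.41 in OGD_KO, a difference of 0.29 ± 0.19. Wars had 4.78, 4.16, 4.99, 5.25 and 5.48 in OGD_WT and 5.30, 4.78, 5.00, 5.24 and 5.43 in OGD_KO, a difference of 0.22 ± 0.21. Both pairs of groups overlapped.

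The response to OGD was compared between genotypes by an interaction term over the 13688 genes in all 4 tables. No synthetase was called, beside 0% of all genes, and none had an unadjusted limma p under 0.05, beside 0.738% of all genes (101). The difference of the responses, KO minus WT, ran from -0.33 (Cars2) to 0.44 (Ears2) over the 37, with a median of 0.04 and standard errors from 0.19 to 0.39. Ears2 had 2.77, 2.92, 2.48, 2.64 and 2.29 in N_WT and 2.54, 1.78, 2.60, 2.53 and 2.83 in OGD_WT, against 2.53, 2.51, 2.70, 2.23 and 2.89 in N_KO and 2.74, 3.21, 2.80, 2.81 and 2.62 in OGD_KO. The N and OGD libraries overlapped in both genotypes, and the interaction was 0.44 ± 0.28 (unadjusted limma p 0.126). Cars2 had 3.03, 2.39, 2.63, 2.55 and 3.10 in N_WT and 2.80, 3.14, 3.16, 3.16 and 3.11 in OGD_WT, against 2.94, 3.04, 2.99, 2.96 and 3.05 in N_KO and 3.03, 3.31, 3.06, 2.36 and 3.33 in OGD_KO, with an interaction of -0.33 ± 0.27 (unadjusted limma p 0.223). Tars2, the mitochondrial threonine enzyme, had 4.24, 4.22, 4.18, 4.19 and 4.19 in N_WT and 4.03, 3.66, 3.99, 3.83 and 4.30 in OGD_WT, against 4.12, 4.25, 4.10, 3.72 and 4.24 in N_KO and 4.02, 4.35, 4.12, 3.64 and 4.30 in OGD_KO, with an interaction of 0.23 ± 0.24 (unadjusted limma p 0.339). The groups of Cars2 and Tars2 also overlapped within each genotype. The missing calls do not show that the genotypes respond alike.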

How the data were processed

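RNA was measured in 20 libraries of 4 groups, prepared with a strand-marking total RNA kit per the labels' protocols. The authors deposited log2 CPM per gene in 4 tables, 1 per comparison of 10 libraries, made on the mouse build mm10 per the submitters' processing notes. The aligner, the counter and the use of strand are not given in the sources used here. In these tables the values of each gene beyond the 10th and 90th percentile of the 5 libraries of a group had been drawn in, in each group separately. This was inferred from the values, since 45.5 to 92.8% of low values per library were whole reads as deposited and at least 99.91% after each extreme was restored (within 0.05 reads, up to 500 reads), and at least 99.98% gave the same reads in both tables of a library.

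On the restored log2 CPM, limma 3.58.1 in R 4.3.3 was fitted to all genes of a table (14152 to 14375), with group as the only term, spread moderated with a trend on the mean and Benjamini-Hochberg adjustment over all genes. A gene was called at an adjusted p under 0.05. The interaction was fitted on the reads of all 20 libraries, with a prior count of 2 and the culture as a block. This use of correlated pairs gave a within-culture correlation of -0.189. Single genes were also tested by a two-sided exact permutation test over 252 splits. In 10 simulations of the WT comparison over 14235 genes, 200 of them changed 2-fold, 95.2% of changed genes were recovered with 2.94% false calls on restored values, against 98.6% and 30.9% on drawn-in values. The simulated libraries were independent, with 1 dispersion for all genes, and were drawn in by the same rule that was then undone. These figures compare restored with drawn-in values in that setting and are not error rates of the calls reported here. P-values treat the libraries of a group as independent samples, and the labels do not give the animals behind these cultures. Replicates 1 and 3 of a group differed by only 1.26 to 1.67 times the sampling noise, against 8.54 to 13.7 among the others. Whether they are independent was not tested, and if they are not, this alone makes the p-values too small. In the knockout comparisons the p-values ran large instead. An unadjusted limma p under 0.05 was held by 1.81% of all genes in N, 1.78% under OGD and 0.738% for the interaction. Calibrated p-values would give a share of about 0.05 even without any difference. The reason was not tested. Averaging replicates 1 and 3 also leaves fewer samples. It gave 4704 called genes in WT instead of 6313, and 4278 in KO instead of 5884.

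N and OGD libraries of 1 number share the culture and batch label, so the labels pair them. Deviations of same-numbered libraries correlated at -0.643 to 0.0573 in WT and -0.79 to -0.065 in KO. Their medians were -0.235 and -0.213, against 0.0633 and 0.0794 for libraries of different numbers. In each genotype 0 of the 10 libraries correlated best with its own number. The pairing thus rests on the labels and was not seen in the values, which limits the responses given per culture. KO and WT libraries share only a number.

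Gene extents and overlaps came from GENCODE M21 on GRCm38, in which all 37 genes were matched (Mars1 by an older symbol), and promoters from RefSeq on GRCm38.p6. The members and the gene lists were chosen with earlier results of these data known. Values of every library are given for the 6 members that rank highest and the 6 that rank lowest by their mean change over both OGD comparisons, for the 3 with the smallest unadjusted p in each knockout comparison and for the 3 with the smallest interaction p, except that 1 member is counted but not otherwise reported here. Of each accompanying list, the 3 largest rises and falls among called genes are named. Alternatives covered the values as deposited, the replicate block, batch terms, batch 3 alone, other scalings, voom, a prior count of 0.5, a floor of 1 on a gene's mean log2 CPM, and leaving out each library. Replicates 1 and 3 alone, replicates 2, 4 and 5 alone, and 1 and 3 averaged were added after seeing the data.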

Additional observations from a re-analysis of the deposited data

Results flagged for a closer look

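Of 148 groups of 5 libraries (37 genes in 4 groups), 10 held a library whose gap to the nearest other was over 0.71 of the group's range, where chance gives about 7.4. Values are log2 CPM. Cars2 was at 2.80 in OGD_WT replicate 1, with the others from 3.11 to 3.16. Ears2 was at 1.78 in OGD_WT replicate 2, with the others from 2.53 to 2.83. Rars2 was at 2.60 in the same library, with the others from 3.32 to 3.52, and its WT fall was -0.98 without it. Hars2 was at 4.53 in OGD_WT replicate 5, with the others from 4.11 to 4.22, and at 3.62 in N_WT replicate 4, with the others from 4.18 to 4.36. Fars2 was at 4.38 in OGD_KO replicate 5, with the others from 3.89 to 3.99. Iars2 was at 4.49 in the same library, with the others from 5.08 to 5.28. Mars1 was at 6.61 in OGD_KO replicate 4, with the others from 6.07 to 6.20. Tars2 was at 3.72 in N_KO replicate 4, with the others from 4.10 to 4.25. Yars2 was at 2.30 in N_KO replicate 5, with the others from 2.87 to 2.96.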

How the results depend on the processing

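Fars2, Eprs, Tars and Rars2 kept their direction and call in both genotypes under all 23 alternatives, and no synthetase called in the report changed sign. Values that were not called did change sign under some alternatives, for example Mars1 in WT from 0.26 to -0.02 and Yars in WT from 0.20 to -0.08 with total reads scaling. Under OGD in WT, where 8 synthetases were higher and 4 lower, 8 were lower on the values as deposited, 5 higher in batch 3 alone, and 4 higher and 11 lower with total reads scaling. In replicates 1 and 3 alone 7 were lower, with 8148 genes called in all. In replicates 2, 4 and 5 alone 3 were higher, with 2411 genes called in all instead of 6313, and 5 were higher with replicates 1 and 3 averaged. In KO, where 9 were higher and 4 lower, 4 were higher in batch 3 alone, which are replicates 2, 4 and 5, with 2341 genes called in all instead of 5884. Total reads scaling gave 4 higher and 7 lower, and averaging replicates 1 and 3 gave 5 higher. The cause of these shifts was not tested.

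Leaving out 1 library at a time gave 5250 to 6635 genes in WT, with 6 to 9 synthetases higher and 4 to 5 lower, and 4908 to 5930 genes in KO, with 6 to 8 higher and 4 to 5 lower. It gave 3 to 5 genes between N_KO and N_WT, 1 to 7 between OGD_KO and OGD_WT and 0 for the interaction, and 0 synthetases in each of these.

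Between N_KO and N_WT, 5 genes were called, against 9 on values as deposited, 3 with the replicate block, 11 with batch as separate levels, 2 in batch 3 alone, 3 at a mean log2 CPM of at least 1, 8 in replicates 1 and 3 alone and 29 in replicates 2, 4 and 5 alone. Between OGD_KO and OGD_WT, 4 genes were called, against 12 on values as deposited, 2 with the replicate block, 2 with batch 3 as 1 level, 17 with batch as separate levels, 2 with total reads scaling, 1 with a prior count of 0.5, 16 in replicates 1 and 3 alone, 18 in replicates 2, 4 and 5 alone and 2 with replicates 1 and 3 averaged. For the interaction 1 gene was called in replicates 1 and 3 alone. No synthetase was called in these 3 comparisons under any of them.

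With the replicate block, 6 synthetases were higher and 4 lower in WT (5681 genes called in all), and 8 higher and 5 lower in KO (4829 genes). The calls it changed were those of Farsa, Kars, Iars and Hars given above. Between KO and WT cultures, which share only a number, same-numbered libraries correlated at -0.0706 to 0.242 in N and -0.207 to 0.238 under OGD. In 8 of the 37 genes at least 1 library held fewer than 50 reads, which limits the precision of those genes. Fars2 (46 reads in its lowest N_WT library), Pars2 (18 in the lowest library of each OGD group) and Sars2 are among them.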
